A study of Arabidopsis thaliana with 12 samples.

Results

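The response of wild-type Arabidopsis thaliana seedlings to salt was measured as the difference between 2 groups of one-colour Agilent arrays, which are 6 of the 12 arrays of the series. The 150 mM group (3 arrays) held whole seedlings of the accession Col-0 that had germinated for 5 days on MS medium and had then spent 24 h on medium with 150 mM NaCl. The 0 mM group (3 arrays) held Col-0 seedlings of the same age, moved in the same way to medium without added NaCl, so both groups had been transplanted and both were 6 days old at harvest. The other 6 arrays hold an Arabidopsis transformant, SvGRP, which carries a glycine-rich RNA-binding protein gene of the grass Sporobolus virginicus, at the same NaCl levels. They enter the results below through the shared estimate of the spread and in the closing comparison of the genotypes. RNA was taken from whole plants, so fewer cells of a type and less RNA per cell cannot be told apart.

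Salt reaches plant cells as a loss of available water and as an excess of sodium and chloride. Water deficit raises the hormone abscisic acid (ABA), whose receptors inhibit clade A protein phosphatases and so free SnRK2 kinases to activate bZIP transcription factors and their targets, among them the hydrophilic LEA proteins. In parallel, transporters of the HKT and SOS families limit sodium in the shoot, compatible solutes such as proline and raffinose accumulate, and growth slows.

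A relative signal here is a probe's signal divided by the 75th percentile of its own array, so a probe at that percentile has the value 1. Relative signals are given for replicates 1, 2 and 3 of a group in that order, and they compare the same probe between arrays, never different genes. A change is the mean log2 relative signal at 150 mM minus that at 0 mM, given with its standard error (SE, n = 3 arrays per group), so a change of 1 is 2-fold. A gene was called at an adjusted p under 0.05 (limma, Benjamini-Hochberg over all 26794 genes or unnamed probes tested), and "rose" and "fell" are used of called genes.

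The arrays of a group were alike, with Pearson's r across genes between 0.991 and 0.997 at 150 mM and between 0.993 and 0.995 at 0 mM, and a median SD of a gene of 0.10 at 150 mM and 0.089 at 0 mM on the log2 scale. The 75th percentile of the signal was 4946 to 5198 at 150 mM and 3641 to 4226 at 0 mM. Arrays lay on slides of 4: slide 1 held replicate 1 at 150 mM together with all 3 arrays at 0 mM, and replicates 2 and 3 at 150 mM lay on slide 2 with no 0 mM array of the wild type. A fit with slide as a block therefore compares the 150 mM array of slide 1 with its 3 neighbours at 0 mM. Nothing in the labels says that replicates came from separate cultures, so the spread that p-values rest on may be only technical.

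Of the 26794 genes tested, 8865 rose (33.1%) and 8082 fell (30.2%), so 63.2% were called in all. At least a 2-fold change was seen in 3985 of them (14.9%), of which 2323 rose (8.67%) and 1662 fell (6.2%). By fitted change, 822 called genes rose at least 4-fold against 366 that fell as far, and 169 rose at least 16-fold against 34. Of the 3985, 407 were too dim at 0 mM and 124 at 150 mM, so that only a bound on their change is known. The balance of rises and falls depended on the filter for dim probes. Without that filter more genes fell than rose at least 2-fold, and with it at the 40th percentile these counts were nearly equal. The 4-fold and 16-fold counts were not repeated under other filters. The arrays of both groups did not overlap in 69.5% of the genes tested, in either direction. Among the 3985 genes, 3568 were called in the same direction with slide as a block, and replicate 1, the 150 mM array on slide 1, had the same sign as the group change in 3978. Replicate 1 is part of the mean by which these genes were picked, and the slide fit compares that same array with the 0 mM arrays. Neither count is therefore an independent check of the calls. The shares of rises and falls depended on the scaling: with arrays scaled to the E1A control probes, the median change of all genes was 0.46, against 0.036 with the 75th percentile, and 86% of the calls were rises, against 52.3%. Changes are read against that median, and directions that turn round under the E1A scaling are named where they occur.

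**Figure D1:**
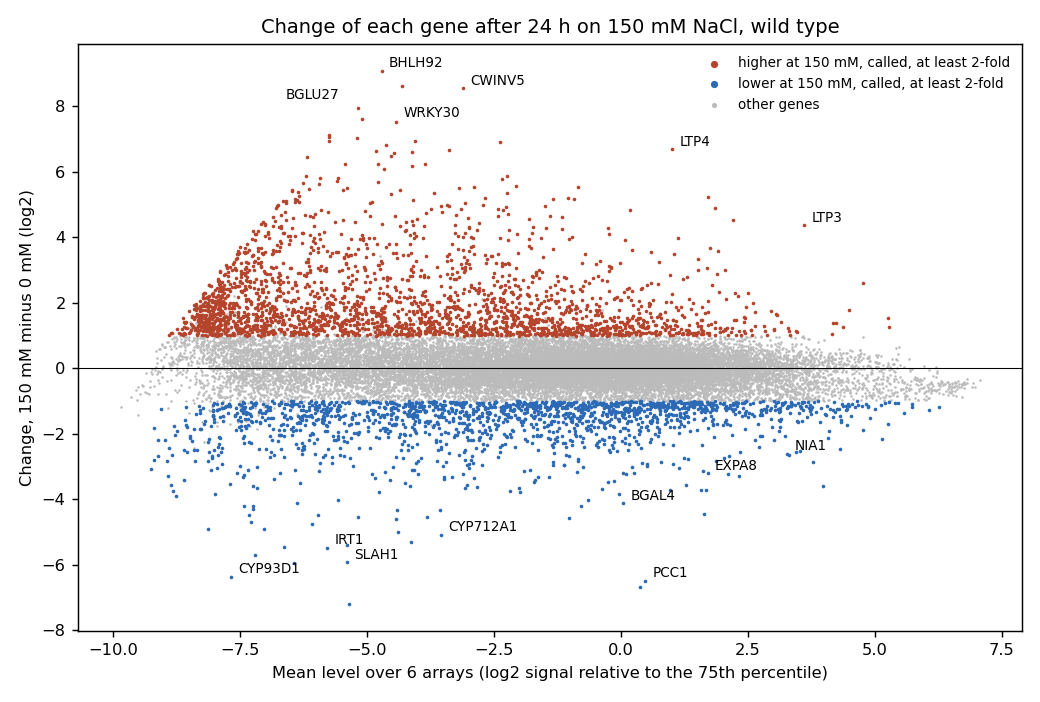
Change of each gene tested (150 mM minus 0 mM, log2, vertical axis) against its mean level over the 6 wild-type arrays (log2 signal relative to the array's 75th percentile, horizontal axis). Coloured points are genes called with at least a 2-fold change, 2323 higher and 1662 lower at 150 mM, grey points are all others, and 14 genes are named. BHLH92 has the largest fitted change, 9.09, and most changes beyond 4 in either direction lie left of 0 on the horizontal axis, while PCC1 (-6.48) and LTP4 (6.69) lie right of 0.

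The genes with a symbol that changed most and whose groups did not overlap are taken first. The largest rise was that of BHLH92 (AT5G43650), a basic helix-loop-helix transcription factor gene. Its relative signals were 1.00, 1.04 and 0.685 at 150 mM, against 0.00181, 0.00143 and 0.00169 at 0 mM, where its probe was not above the 20th percentile on any array, and it rose at least 231-fold. CWINV5 (AT3G13784), of the cell wall invertase family that splits sucrose outside the cell, had 2.52, 2.47 and 1.81 at 150 mM, against 0.0101, 0.00232 and 0.00912 at 0 mM and a change of 8.55 ± 0.57. BGLU27 (AT3G60120), a beta-glucosidase gene, rose at least 113-fold, and CSLA01 (AT4G16590), of the cellulose synthase-like A family that makes mannans, at least 33.4-fold. SYP124 (AT1G61290), a syntaxin of membrane fusion, gave 0.340, 0.296 and 0.355 at 150 mM, against 0.00467, 0.00424 and 0.00556 at 0 mM, and its groups lay apart by 6.10 ± 0.15. WRKY30, a WRKY transcription factor gene, changed by 7.51 ± 0.48.

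PCC1 (AT3G22231), a small membrane protein gene known for its induction by pathogens and its control by the clock, had the largest fall of a gene with a symbol, with relative signals of 0.134, 0.0529 and 0.452 at 150 mM, against 12.3, 12.2 and 15.1 at 0 mM (-6.48 ± 0.88, adjusted p = 1.4e-04). Its 3 arrays at 150 mM differed from each other by more than the 3 arrays at 0 mM, yet all lay far below them. Several cytochrome P450 genes were among the largest falls, and 2 of these, CYP93D1 and CYP712A2, are neighbours on the chromosome in the RefSeq gene table. CYP93D1 fell at least 8.49-fold and CYP712A2 at least 5.47-fold, while their relative CYP712A1 had 0.0148, 0.0136 and 0.0157 at 150 mM, against 0.350, 0.772 and 0.460 at 0 mM and a change of -5.09 ± 0.25. ROXY2, a glutaredoxin gene, fell at least 14.8-fold. BGAL4, a beta-galactosidase gene, had 0.245, 0.260 and 0.239 at 150 mM, against 4.07, 4.69 and 4.14 at 0 mM, a fall of 4.12 on the log2 scale. BXL1, a beta-xylosidase gene of the cell wall, had 1.47, 1.78 and 1.56 at 150 mM, against 9.41, 11.7 and 10.7 at 0 mM, and ADS1, a fatty acid desaturase gene, had 0.808, 0.969 and 1.40 at 150 mM, against 7.83, 8.06 and 11.6 at 0 mM. Those 3 bright genes gave groups that lay far apart, and similar falls were seen in THI2.2, a thionin gene (-3.21 ± 0.29), and CHX17, a cation/proton exchanger gene of roots (-2.99 ± 0.18).

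Among genes with a mean signal above the 75th percentile, LTP4 and LTP3, neighbouring genes of lipid transfer proteins, had the largest and the third largest rise. LTP4 had relative signals of 24.2, 21.3 and 16.6 at 150 mM, against 0.372, 0.0915 and 0.230 at 0 mM, and LTP3 had 63.9, 54.6 and 48.6 at 150 mM, against 5.28, 1.59 and 2.28 at 0 mM. The changes were 6.69 ± 0.68 and 4.37 ± 0.37. SOT12, a sulfotransferase gene, gave 7.40, 11.2 and 9.86 at 150 mM, against 1.18, 1.09 and 1.07 at 0 mM, a change of 3.07 ± 0.15, and EXLB1, an expansin-like gene, gave 10.7, 10.4 and 9.05 at 150 mM, against 1.23, 1.26 and 1.65 at 0 mM, a change of 2.87 ± 0.13. BCB, a blue copper protein gene, and BGLU11, a beta-glucosidase gene, changed by 2.86 ± 0.34 and 2.72 ± 0.16.

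In the ABA pathway a synthesis gene and a breakdown gene rose by like amounts, most receptor genes fell and most clade A phosphatase genes rose. NCED3 (AT3G14440) encodes the 9-cis-epoxycarotenoid dioxygenase that commits carotenoids to ABA in water-stressed leaves. Its relative signals were 0.535, 0.861 and 0.502 at 150 mM, against 0.143, 0.110 and 0.137 at 0 mM, a change of 2.25 ± 0.28 with an adjusted p of 7.8e-05. CYP707A1 (AT4G19230), an ABA 8'-hydroxylase gene that inactivates the hormone, had 0.502, 0.572 and 0.495 at 150 mM, against 0.15, 0.0840 and 0.123 at 0 mM, a change of 2.17 ± 0.29. In neither gene did the groups overlap. In all, 8 of 15 genes of ABA synthesis, conjugation and breakdown rose and 2 fell, with a median change of 0.44 against 0.036 over all genes, and with slide as a block 5 were called higher.

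Of 10 ABA receptor genes tested, 8 fell, 1 rose and the median change was -0.52, which shrank to -0.094 under the E1A scaling, where 4 were called lower and 2 higher. PYL6 (AT2G40330) fell most, with relative signals of 0.0424, 0.0340 and 0.0214 at 150 mM, against 0.242, 0.305 and 0.210 at 0 mM and a change of -2.99 ± 0.24. PYL3 had 0.0192, 0.0218 and 0.0217 at 150 mM, against 0.0405, 0.0445 and 0.0408 at 0 mM, a fall of 1.01, and PYL7 was the receptor gene that rose, by 0.69. The phosphatases that these receptors inhibit went the other way: 8 of 9 rose, the median change was 1.02, and AHG1 was the member not called. HAI2 (AT1G07430) gave 0.630, 0.963 and 0.504 at 150 mM, against 0.0302, 0.0202 and 0.0481 at 0 mM and HAI1 gave 1.79, 1.8 and 1.17 at 150 mM, against 0.277, 0.171 and 0.307 at 0 mM, changes of 4.45 ± 0.46 and 2.67 ± 0.45. HAI3 had 0.880, 1.39 and 0.695 at 150 mM, against 0.0706, 0.00636 and 0.117 at 0 mM, where replicate 2 at 0 mM lay far below the other 2, so its change of 4.66 ± 1.11 carries a wide error. Of the SnRK2 kinases and ABA bZIP and B3 factors, 3 of 9 rose and 0 fell, with a median of 0.13, or -0.0095 under quantile normalization, so this layer stayed near the median of all genes.

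Downstream, 15 of 20 LEA proteins and other ABA-induced products rose and 1 fell, with a median change of 1.25. RAB18 (AT5G66400), a dehydrin gene induced by ABA, had 78.7, 72.1 and 52.4 at 150 mM, against 9.80, 8.16 and 16.5 at 0 mM, a change of 2.61 ± 0.23. RD29A (AT5G52310) and RD29B (AT5G52300) are neighbours that carry dehydration-responsive and ABA-responsive promoter elements, and both rose. RD29A had 17.2, 13.9 and 13.8 at 150 mM, against 4.43, 5.23 and 4.46 at 0 mM, and RD29B had 0.926, 0.767 and 0.336 at 150 mM, against 0.0784, 0.0560 and 0.0711 at 0 mM. Replicate 3 at 150 mM was the lowest for RAB18, RD29A and RD29B, and every 150 mM array lay above every 0 mM array. Seed-type LEA genes rose as well: EM1 had 0.754, 1.83 and 0.668 at 150 mM, against 0.00833, 0.00465 and 0.0221 at 0 mM, and EM6 had 0.899, 1.29 and 0.707 at 150 mM, against 0.0610, 0.0390 and 0.0533 at 0 mM, changes of 6.68 ± 0.63 and 4.22 ± 0.31. COR15B, a chloroplast cold-regulated gene, fell by 1.24, whereas its neighbour COR15A rose by 0.94.

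**Figure D2:**
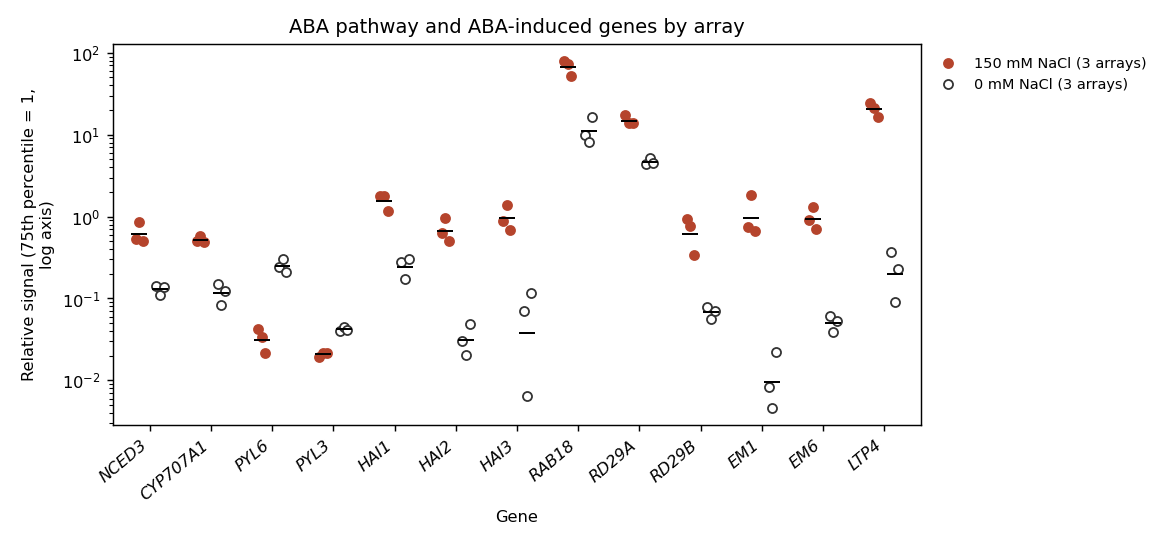
Relative signal (signal divided by the array's 75th percentile, log axis) of ABA pathway genes on each array. For each gene, filled points at the left are the 3 arrays at 150 mM and open points at the right are the 3 at 0 mM, and lines mark group means on the log scale. NCED3, CYP707A1, HAI1, HAI2, RAB18 and RD29B lie higher at 150 mM on all arrays, and PYL6 lies lower on all.

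Transcription factor families known for stress responses mostly rose, with the CBF and DREB group and the WRKY group moving furthest. Of 11 CBF and DREB factor genes, which bind dehydration-responsive elements, 10 rose and 1 fell, and the median change was 2.31, or 2.09 with genes too dim in a group taken at their bounds. DREB2A (AT5G05410) had 3.17, 4.41 and 3.66 at 150 mM, against 0.592, 0.553 and 0.687 at 0 mM (2.61 ± 0.23). DDF1, which is known to restrain gibberellin in salt-grown seedlings, had 0.0985, 0.0654 and 0.0555 at 150 mM, against 0.00180, 0.00189 and 0.00219 at 0 mM, at or under the 20th percentile on every 0 mM array, and rose at least 18.4-fold. Cold-type members rose too, and CBF1 changed by 2.5 ± 0.26. CBF4, a member induced by drought, had 0.0318, 0.0365 and 0.0325 at 150 mM, against 0.00627, 0.00369 and 0.00771 at 0 mM. For NAC factors of stress and senescence, 13 of 15 rose and 1 fell, with a median of 1.31, and NAC019 had 0.647, 0.451 and 0.444 at 150 mM, against 0.108, 0.0711 and 0.13 at 0 mM. NAC029 changed by 1.90 ± 0.22 and NAC055 by 1.76 ± 0.22.

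Stress MYB factor genes were mixed, with 8 of 15 risen, 4 fallen and a median of 0.52. MYB15 (AT3G23250) had 1.24, 1.51 and 1.35 at 150 mM, against 0.0906, 0.0164 and 0.0243 at 0 mM, with replicate 1 at 0 mM above the other 2, and changed by 5.36 ± 0.63. MYB41 (AT4G28110), known for switching on suberin synthesis, had 0.390, 1.1 and 0.638 at 150 mM, against 0.0736, 0.0607 and 0.0774 at 0 mM, where replicate 2 was the highest at 150 mM. MYB2 and MYB108 changed by 4.11 ± 0.28 and 3.3 ± 0.26. Of 16 class I HD-Zip factors, 6 rose and 5 fell, near the shares over all genes (33.1% and 30.2%). Their median of -0.22 turned to 0.21 under the E1A scaling. HB7 (AT2G46680), an ABA-induced member, had 3.62, 2.88 and 2.19 at 150 mM, against 1.04, 0.821 and 1.01 at 0 mM, HB21 changed by 2.08 ± 0.22, and HB52 fell by 1.39.

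Among C2H2 zinc-finger repressors, 4 of 7 rose and 0 fell, with a median of 0.86. ZAT12 (AT5G59820), a factor of oxidative stress responses, had 10.6, 12.9 and 11.7 at 150 mM, against 1.61, 1.28 and 1.48 at 0 mM, and ZAT7 had 0.479, 0.440 and 0.401 at 150 mM, against 0.0266, 0.0265 and 0.0274 at 0 mM. In ZAT7 the arrays of each group nearly coincided, and its change was 4.03 ± 0.30. Of 17 stress ERF factors, 10 rose and 4 fell, with a median of 0.70. ERF109, a gene of redox and jasmonate responses, had 0.574, 0.253 and 0.220 at 150 mM, against 0.00169, 0.00749 and 0.00578 at 0 mM, with replicate 1 the highest at 150 mM. HRE2, known from hypoxia, rose at least 41.2-fold, and ERF1, of the ethylene and jasmonate pathways, changed by 4.05 ± 0.31, while ERF105 fell by 1.37. WRKY factors held 12 rises and 2 falls among 16 genes, with a median of 1.52. WRKY8 had 0.325, 0.539 and 0.383 at 150 mM, against 0.0468, 0.0258 and 0.0303 at 0 mM, and WRKY18 had 6.48, 3.05 and 3.48 at 150 mM, against 0.838, 0.601 and 0.631 at 0 mM. The 2 falls were WRKY54 and WRKY70, related factors of salicylic acid signalling. WRKY54 had 0.0212, 0.0218 and 0.0246 at 150 mM, against 0.183, 0.144 and 0.178 at 0 mM, and the changes were -2.90 ± 0.092 and -2.33 ± 0.11.

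Genes for protein folding in the cytosol, the mitochondria and the plastids rose strongly, although the labels name no heat treatment. All 7 small heat shock protein genes tested rose, with a median change of 4.85, and so did all 13 large chaperone genes, with a median of 0.92. HSP23.6 (AT4G25200), which encodes a mitochondrial member, had 0.284, 0.751 and 0.323 at 150 mM, against 0.00155, 0.00320 and 0.00190 at 0 mM and rose at least 106-fold. HSP17.6 gave 0.594, 1.03 and 0.521 at 150 mM, against 0.0221, 0.0289 and 0.0138 at 0 mM, and HSP22.0, of the endoplasmic reticulum, gave 0.457, 0.530 and 0.286 at 150 mM, against 0.00490, 0.00164 and 0.0122 at 0 mM. Replicate 2 at 150 mM was the highest for all 3 of these genes. The plastid member HSP21 changed by 4.65 ± 0.87. Among the chaperones, HSP70B and ROF2 changed by 2.61 ± 0.17 and 2.45 ± 0.19, and HSP101, the disaggregase of heat tolerance, by 1.84 ± 0.17. HSP70B had 0.343, 0.443 and 0.298 at 150 mM, against 0.060, 0.0544 and 0.0613 at 0 mM.

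Heat shock factors, which drive such genes, were called higher in 11 and lower in 2 of 19. HSFA2 (AT2G26150) had 1.08, 2.03 and 1.23 at 150 mM, against 0.0514, 0.0641 and 0.0611 at 0 mM, a change of 4.57 ± 0.23. HSFA6B had 0.883, 2.11 and 1.3 at 150 mM, against 0.0840, 0.0400 and 0.0911 at 0 mM (4.32 ± 0.53), but its other kept probe gave 0.47. Class A members led, since HSFA6A and HSFA7B followed with 2.24 ± 0.41 and 2.21 ± 0.20. Endoplasmic reticulum stress genes rose in 13 of 14 and fell in 1, with a smaller median of 0.56, and 7 were called higher with slide as a block. BIP3, the stress-induced lumenal HSP70, changed by 1.28 ± 0.40, or by 0.99 with slide as a block, where it was not called (adjusted p = 0.15), as under quantile normalization.

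Sodium and potassium transport genes did not move as a group: 8 of 22 rose, 10 fell and the median change was 0.061, or -0.060 under quantile normalization. HKT1 (AT4G10310) retrieves sodium from the xylem sap and so protects the shoot, and its relative signals were 0.0230, 0.0199 and 0.0169 at 150 mM, against 0.168, 0.158 and 0.187 at 0 mM. The fall of 3.11 on the log2 scale (adjusted p = 8.2e-07) was 1 of the 2 largest in the list. SKOR, the outward channel that loads potassium into the xylem, had 0.0718, 0.0812 and 0.0595 at 150 mM, against 0.858, 0.819 and 0.982 at 0 mM, a change of -3.65 ± 0.23. On the rising side, HAK5, a high-affinity potassium uptake carrier of roots, had 0.413, 0.414 and 0.427 at 150 mM, against 0.106, 0.156 and 0.114 at 0 mM, and CAX3, a vacuolar cation exchanger, had 1.40, 1.19 and 0.948 at 150 mM, against 0.248, 0.189 and 0.247 at 0 mM. SOS1 (AT2G01980), the plasma membrane sodium/proton antiporter, had 0.344, 0.341 and 0.325 at 150 mM, against 0.318, 0.355 and 0.318 at 0 mM, a change of 0.029 ± 0.054 (adjusted p = 0.65, not called), or 0.46 under the E1A scaling, where it was called. CBL10, a calcium sensor of the SOS pathway in shoots, fell by 1.26.

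Anion channels and carriers held 7 rises and 4 falls among 15 genes, with a median of 0.16. SLAH1 (AT1G62280), a gene of root vascular cells known for chloride transfer to the shoot, had 0.00261, 0.00287 and 0.00384 at 150 mM, against 0.206, 0.177 and 0.175 at 0 mM, at or under the 20th percentile on all 150 mM arrays, and fell at least 35.5-fold. NRT1.5, which loads nitrate into the xylem, had 1.35, 1.43 and 1.44 at 150 mM, against 13.8, 16.1 and 10.4 at 0 mM, a change of -3.23 ± 0.18.

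**Figure D3:**
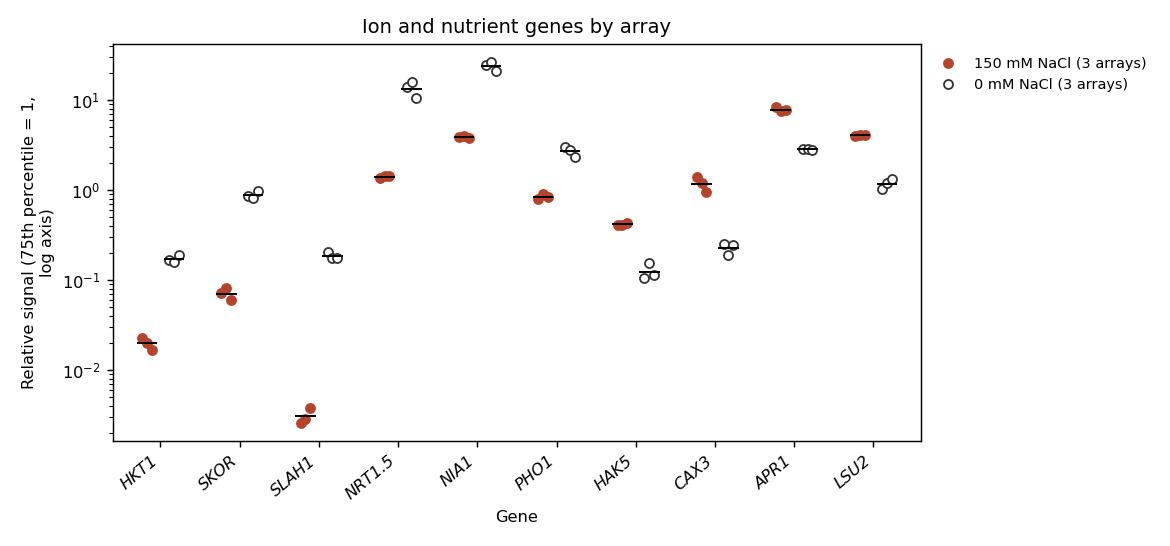
Relative signal (signal divided by the array's 75th percentile, log axis) of transport and nutrient genes on each array, with 150 mM (filled) left of 0 mM (open) for each gene and lines at the group means on the log scale. HKT1, SKOR, SLAH1, NRT1.5, NIA1 and PHO1 lie lower on all 150 mM arrays than on any 0 mM array, and HAK5, CAX3, APR1 and LSU2 lie higher.

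More nitrogen genes fell than rose with the 75th percentile scaling, and sulfur genes mostly rose. Of 21 genes of nitrate uptake and nitrogen assimilation, 14 fell and 5 rose, with a median change of -0.50, which was -0.069 under the E1A scaling, where 8 were called lower and 7 higher. NIA1 (AT1G77760), a nitrate reductase gene, had 3.92, 4.0 and 3.82 at 150 mM, against 24.7, 26.4 and 21.0 at 0 mM, a change of -2.61 ± 0.11, and ASN1, an asparagine synthetase gene induced in the dark, had 1.73, 1.37 and 1.12 at 150 mM, against 8.94, 9.19 and 11.3 at 0 mM. Among the rises, NRT1.8, which removes nitrate from the xylem sap, changed by 2.31 ± 0.41, and NRT2.1, a high-affinity uptake carrier, by 1.46 ± 0.22. NRT2.6, of the same family as NRT2.1, rose at least 8.95-fold. Sulfate uptake and sulfur deficiency genes held 8 rises and 0 falls among 10 tested, with a median of 1.25. The list has 17 members, 6 of them without a probe listed. SULTR2;2 was the only sulfate carrier gene tested (0.32 ± 0.11), and it was not called under quantile normalization, so these counts say little on uptake. The 3 genes of adenosine phosphosulfate reductase, the control step of sulfate reduction, all rose: APR1 had 8.30, 7.55 and 7.66 at 150 mM, against 2.84, 2.88 and 2.78 at 0 mM, and APR2 and APR3 changed by 1.29 ± 0.11 and 1.34 ± 0.10. SDI1 and LSU2, marker genes of sulfur shortage, changed by 2.08 ± 0.39 and 1.78 ± 0.18.

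Phosphate starvation genes were called higher in 4 and lower in 2 of 15, with a median of 0.30, and with slide as a block 9 were called higher and the median was 0.84. PS2, a phosphatase gene, had 1.68, 0.474 and 0.560 at 150 mM, against 0.134, 0.227 and 0.187 at 0 mM, so replicate 1 stood apart from replicates 2 and 3, and its change was 2.1 ± 0.43. PHO1, which exports phosphate to the xylem, fell to 0.802, 0.894 and 0.845 at 150 mM, against 3.03, 2.81 and 2.34 at 0 mM. Iron acquisition and storage genes fell in 7 of 22, near the share over all genes (30.2%), and rose in 3. Their median of -0.18 turned to 0.25 under the E1A scaling. IRT1 (AT4G19690), the main iron uptake carrier of roots, had 0.00245, 0.00284 and 0.00293 at 150 mM, against 0.117, 0.0398 and 0.392 at 0 mM and fell at least 23.47-fold, with wide spread among the 0 mM arrays. IREG2, a vacuolar metal carrier, and BHLH39, a factor of the iron shortage response, fell by 1.49 and 1.58.

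Most aquaporin genes tested fell, by amounts that depended on the scaling. All 8 plasma membrane aquaporin genes fell, with a median change of -0.78, as did 3 of 4 tonoplast aquaporin genes, with a median of -0.66. PIP1A gave 11.2, 9.78 and 9.0 at 150 mM, against 24.7, 26.0 and 27.8 at 0 mM, and PIP2B gave 4.77, 4.71 and 3.86 at 150 mM, against 9.98, 11.3 and 10.7 at 0 mM. Under the E1A scaling the medians were -0.35 and -0.23, with 5 plasma membrane and 2 tonoplast genes called lower, and under quantile normalization -0.42 and -0.26, with 6 and 2. PIP1A and PIP2B had changes of -0.96 and -0.84 under the E1A scaling.

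Genes of compatible solutes and carbohydrate storage showed rises of particular members. The galactinol and starch lists did not move as a whole, while more proline genes rose than fell. P5CS1 (AT2G39800), the rate-limiting enzyme gene of proline synthesis, had 9.17, 7.22 and 5.53 at 150 mM, against 3.72, 3.48 and 3.90 at 0 mM, a change of 0.95 ± 0.19 (adjusted p = 0.0014, called). Proline metabolism and transport genes rose in 5 and fell in 1 of 9, with a median of 0.30. Among 7 galactinol and raffinose synthesis genes there were 2 rises and 2 falls, near the shares over all genes. Their median was -0.034, or 0.39 under the E1A scaling. Galactinol synthase genes were among both: GOLS4 had 0.413, 0.571 and 0.426 at 150 mM, against 0.0458, 0.0256 and 0.0387 at 0 mM, and GOLS2 had 1.8, 2.02 and 1.19 at 150 mM, against 0.494, 0.318 and 0.424 at 0 mM, whereas GOLS3 fell by 1.1 and was not called with slide as a block (adjusted p = 0.19). The other fall was that of DIN10, a raffinose synthase family gene induced in the dark, by 1.18.

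Starch turnover genes held 12 rises and 10 falls among 30, near the shares over all genes, with a median of 0.0030. The balance depended on the scaling, since under the E1A scaling 19 were called higher and 3 lower with a median of 0.43, and the median was -0.060 when arrays were scaled to their medians. The largest rises lay in plastid import and in the large subunits of ADP-glucose pyrophosphorylase, the enzyme that makes the precursor of starch. APL3 (AT4G39210), a large subunit gene, had 9.83, 8.40 and 9.14 at 150 mM, against 0.881, 0.818 and 1.00 at 0 mM, and APL4 had 1.54, 1.25 and 1.21 at 150 mM, against 0.255, 0.227 and 0.262 at 0 mM. The leaf subunit gene APL1 fell by 1.08. GPT2, the plastid glucose-6-phosphate carrier, had 2.49, 1.84 and 1.62 at 150 mM, against 0.0860, 0.0917 and 0.248 at 0 mM, a change of 3.96 ± 0.48. Trehalose phosphate synthases and phosphatases fell in 7 and rose in 1 of 10, with a median of -0.30 that turned to 0.13 under the E1A scaling, led by TPS11 (-1.34 ± 0.10) and TPS9 (-1.3 ± 0.093).

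Photosynthesis genes were mostly lower, by modest amounts that depended on the scaling. All 16 Calvin cycle genes tested fell, with a median change of -0.80, and 28 of 29 photosystem and antenna protein genes fell while 0 rose, with a median of -0.66. Under the E1A scaling these medians were -0.37 and -0.23, with 10 and 16 genes called lower. Under quantile normalization they were -0.37 and -0.11, with 12 and 13 called lower and 1 photosystem gene higher. The probes of 18 of the 29 photosystem and antenna genes gave more than 50% of the brightest signal on all 6 arrays, and 6 of these 18 were called lower under the E1A scaling. The brightest probe stood for each gene, and other kept probes of a gene could fall further. Changes over kept probes ran from -1.74 to -0.58 for LHCA1 and from -1.15 to -0.43 for LHCB2.2, where the probe used fell least. For LHCA3 and LHCB4.1 they ran from -1.39 to 0.020 and from -1.18 to 0.46. Whether signal near the upper end of the scanner's range limits these changes was not tested. SBPASE (AT3G55800), the sedoheptulose bisphosphatase gene, had 12.8, 12.9 and 12.7 at 150 mM, against 29.4, 31.8 and 30.2 at 0 mM, and CP12-2, a regulator of Calvin cycle enzymes, had 2.75, 2.35 and 1.95 at 150 mM, against 4.76, 5.61 and 6.16 at 0 mM. Chlorophyll synthesis genes fell in 10 and rose in 1 of 14, with a median of -0.55, or -0.12 under the E1A scaling with 5 called lower. Of 17 genes of chlorophyll breakdown and senescence, 5 rose and 5 fell, near the shares over all genes, with a median of 0.34. SAG29, a sugar carrier gene of senescence, had 5.09, 4.74 and 2.11 at 150 mM, against 0.215, 0.0832 and 0.373 at 0 mM, and DIN2, a beta-glucosidase gene induced in the dark, had 2.54, 2.62 and 1.92 at 150 mM, against 0.339, 0.151 and 0.278 at 0 mM. SEN1, likewise a gene of dark and senescence, went the other way, with 1.04, 0.977 and 0.553 at 150 mM, against 9.34, 12.2 and 10.99 at 0 mM, a change of -3.71 ± 0.37.

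Scavengers of reactive oxygen were divided, with 11 lower and 7 higher of 24 and a median of -0.15 that turned to 0.27 under the E1A scaling and to 0.027 under quantile normalization. The largest falls were in copper/zinc superoxide dismutases and a thylakoid peroxidase. CSD2 (AT2G28190), the plastid superoxide dismutase, had 2.25, 2.26 and 2.29 at 150 mM, against 7.18, 11.1 and 9.75 at 0 mM, and CSD1, the cytosolic form, had 6.69, 6.21 and 6.02 at 150 mM, against 13.6, 18.49 and 16.8 at 0 mM. TAPX, the thylakoid ascorbate peroxidase, had 1.72, 1.73 and 1.77 at 150 mM, against 5.98, 6.28 and 6.34 at 0 mM, whereas the stromal form SAPX rose by 1.08. Mitochondrial stress genes rose in 11 and fell in 1 of 13, with a median of 1.28. AOX1D (AT1G32350), an alternative oxidase of the non-phosphorylating respiratory path, had 1.34, 0.714 and 0.659 at 150 mM, against 0.0268, 0.0287 and 0.0257 at 0 mM (4.99 ± 0.27). OM66, an outer membrane protein gene, had 4.99, 6.90 and 6.42 at 150 mM, against 0.429, 0.143 and 0.155 at 0 mM, a change of 4.84 ± 0.41, and NDB4, an external NADH dehydrogenase gene, changed by 3.98 ± 0.91, with an adjusted p of 0.066 when slide was a block. AOX1A, the alternative oxidase gene best known as a marker of mitochondrial stress, changed by 1.28 ± 0.11.

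Within the flavonoid pathway the late steps had larger changes than the early ones. Of 13 late anthocyanin genes and their regulators, 12 rose and 1 fell, with a median change of 3.70, or 3.5 with dim genes at their bounds. DFR (AT5G42800), dihydroflavonol reductase, had 1.48, 1.54 and 1.40 at 150 mM, against 0.0304, 0.0214 and 0.0292 at 0 mM, and LDOX, the next enzyme, had 0.258, 0.294 and 0.280 at 150 mM, against 0.00740, 0.00564 and 0.00788 at 0 mM. TT19, which carries anthocyanins to the vacuole, had 2.43, 2.29 and 2.41 at 150 mM, against 0.0619, 0.0654 and 0.0729 at 0 mM. In these 3 genes the arrays of each group lay close together and the groups far apart, with changes of 5.79 ± 0.20, 5.33 ± 0.17 and 5.16 ± 0.11. The regulators rose as well: PAP1 changed by 4.96 ± 0.17, TT8 changed by 3.5 ± 0.13, and PAP2 rose at least 8.69-fold. TTG1 was the member that fell, by 0.49, and under the E1A scaling its change was -0.061 and not called. Of 16 phenylpropanoid and early flavonoid genes, 6 rose, near the share over all genes (33.1%), and 2 fell, with a median of 0.21. Chalcone synthase (CHS, 0.18 ± 0.21) and chalcone isomerase (CHI, 0.046 ± 0.10) were not called, though under the E1A scaling both were, at 0.61 and 0.47.

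**Figure D4:**
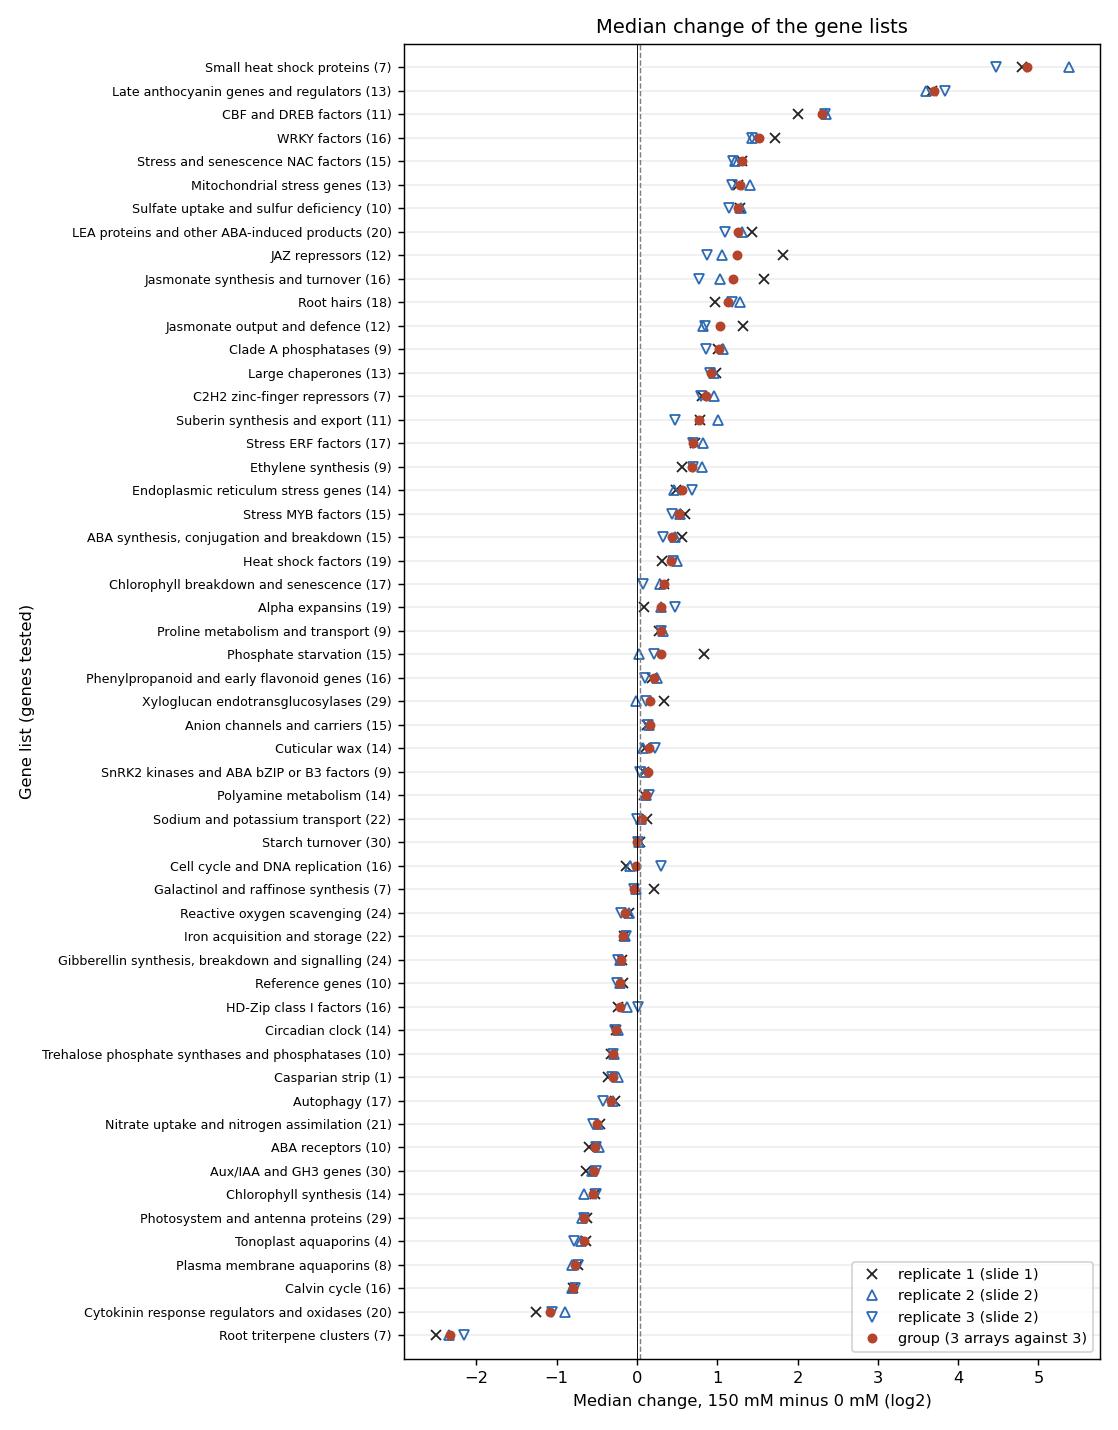
Median change (log2, 150 mM minus 0 mM, horizontal axis) of the 55 functional gene lists, sorted from the highest to the lowest. Filled circles are the medians over the 3 arrays at 150 mM, crosses show replicate 1 (slide 1) and open triangles replicates 2 and 3 (slide 2), each against the mean of the 0 mM arrays, and the dashed line is the median of all genes at 0.036. Small heat shock proteins (4.85) and late anthocyanin genes (3.70) lie at the top, root triterpene clusters (-2.32) at the bottom, and in the jasmonate lists replicate 1 lies right of replicates 2 and 3.

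The triterpene gene clusters, in which neighbouring genes make root metabolites such as thalianol and arabidiol, fell in 6 of 7 genes, with a median change of -2.32, and 0 rose. THAS1 (AT5G48010), thalianol synthase, had 0.246, 0.237 and 0.313 at 150 mM, against 1.39, 1.21 and 1.60 at 0 mM, and its neighbours THAH and THAD changed by -2.32 ± 0.25 and -2.95 ± 0.40. PEN1, arabidiol synthase, had 0.0312, 0.0338 and 0.0296 at 150 mM, against 0.327, 0.325 and 0.293 at 0 mM, and CYP705A1, next to it, changed by -2.29 ± 0.31. These 5 genes stayed at least 2-fold lower with slide as a block. In the marneral pair, MRO fell by 1.12, and its neighbour MRN1 was not called (-0.36 ± 0.71, adjusted p = 0.67), with groups that overlapped.

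Jasmonate genes rose, and most strongly on replicate 1 at 150 mM. Of 16 genes of jasmonate synthesis and turnover, 13 rose and 1 fell, with a median of 1.19, and of 12 JAZ repressor genes, 9 rose and 2 fell, and the median was 1.25. The JAZ median was 1.82 on replicate 1, the array of slide 1, and 1.06 and 0.87 on replicates 2 and 3. JAZ8 had 0.450, 0.0496 and 0.0322 at 150 mM, against 0.00216, 0.00423 and 0.00331 at 0 mM, and JAZ10 had 1.36, 0.344 and 0.430 at 150 mM, against 0.0676, 0.0724 and 0.0610 at 0 mM. LOX2, a lipoxygenase gene of the first step, had 46.8, 40.2 and 38.9 at 150 mM, against 9.55, 12.4 and 15.5 at 0 mM, without such a gap between the 150 mM arrays. CYP94C1, which oxidises the active hormone, had 1.53, 0.176 and 0.116 at 150 mM, against 0.0531, 0.0617 and 0.0569 at 0 mM, and its change of 2.46 ± 0.75 was 4.74 with slide as a block. Whether the slide or the seedlings of replicate 1 set it apart was not tested.

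Jasmonate output and defence genes rose in 6 and fell in 4 of 12, with a median of 1.04. TAT3, a tyrosine aminotransferase gene, had 1.11, 0.403 and 0.479 at 150 mM, against 0.00482, 0.00770 and 0.0136 at 0 mM, and VSP2, a storage protein gene, had 13.6, 12.2 and 10.9 at 150 mM, against 3.19, 2.61 and 3.45 at 0 mM. The defensin gene PDF1.2 had 0.00341, 0.00102 and 0.000800 at 150 mM, against 0.00722, 0.188 and 0.0541 at 0 mM and fell at least 8.03-fold, but its 0 mM arrays spanned a wide range and it was not called with slide as a block (adjusted p = 0.092). Its near-identical relatives PDF1.2C and PDF1.3 may share its probes' signal. Ethylene synthesis genes moved in 2 directions, 5 up and 3 down of 9, with a median of 0.69. The ACC synthase ACS2 had 0.862, 1.2 and 1.27 at 150 mM, against 0.0637, 0.0292 and 0.0386 at 0 mM, and ACS7 had 0.774, 1.24 and 1.04 at 150 mM, against 0.0860, 0.0433 and 0.0533 at 0 mM. ACS4 of the same family had 0.00911, 0.00428 and 0.00497 at 150 mM, against 0.124, 0.167 and 0.116 at 0 mM, and ACS5 fell at least 4.93-fold.

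Genes of growth hormones fell more often than they rose. Of 20 cytokinin genes (10 response regulators, 7 oxidases and 3 isopentenyltransferases of synthesis), 14 fell and 2 rose, with a median change of -1.08, and 11 fell at least 2-fold. ARR9, a type A response regulator that cytokinin induces, had 0.951, 0.991 and 0.943 at 150 mM, against 2.88, 2.51 and 2.77 at 0 mM, and CKX4, a cytokinin oxidase, had 0.0611, 0.0438 and 0.0344 at 150 mM, against 0.278, 0.310 and 0.364 at 0 mM. Of the response regulators 9 fell and 0 rose, with a median of -1.14, and of the oxidases 3 fell and 1 rose, with a median of -0.21. Among 30 Aux/IAA and GH3 genes, which auxin induces, 21 fell and 5 rose, with a median of -0.54, or -0.11 under the E1A scaling, where 13 were called lower. IAA29 (AT4G32280) had 0.124, 0.141 and 0.146 at 150 mM, against 2.56, 2.32 and 2.63 at 0 mM, a change of -4.19 ± 0.34, and IAA6 and IAA19 changed by -3.05 ± 0.45 and -1.93 ± 0.17. GH3.3, which conjugates auxin to amino acids, was among the rises, with a change of 1.37 ± 0.36.

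Gibberellin genes fell in 12 and rose in 6 of 24, with a median of -0.20 that turned to 0.23 under the E1A scaling. GA20OX1 and GA3OX2, genes of the last synthesis steps, changed by -1.61 ± 0.21 and -1.70 ± 0.23, and GA2OX1, which inactivates the hormone, changed by -1.74 ± 0.15. Polyamine genes were split, 7 up and 6 down of 14, with a median of 0.12. BUD2 and ACL5 encode S-adenosylmethionine decarboxylase and thermospermine synthase, which act in turn in the making of thermospermine in the xylem. BUD2 had 0.0221, 0.0194 and 0.0215 at 150 mM, against 0.0968, 0.134 and 0.13 at 0 mM, and ACL5 had 0.316, 0.329 and 0.341 at 150 mM, against 1.57, 1.63 and 1.61 at 0 mM, while SPDS3, a spermine synthase gene, had 5.4, 4.47 and 4.97 at 150 mM, against 1.65, 1.46 and 1.59 at 0 mM.

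Cell wall and barrier genes changed member by member. Alpha expansins, which loosen walls, rose in 7 and fell in 6 of 19, near the shares over all genes, with a median of 0.30. EXPA8 (AT2G40610) had 0.894, 1.03 and 1.36 at 150 mM, against 10.6, 8.66 and 10.7 at 0 mM, a change of -3.20 ± 0.33, whereas EXPA17 had 2.16, 1.82 and 1.49 at 150 mM, against 0.268, 0.0873 and 0.306 at 0 mM, a change of 3.22 ± 0.45. Xyloglucan endotransglucosylases rose in 12 and fell in 7 of 29, with a median of 0.17, and XTH23 had 6.38, 4.66 and 4.81 at 150 mM, against 0.642, 0.530 and 0.486 at 0 mM. Suberin synthesis and export genes rose in 7 and fell in 2 of 11, with a median of 0.77, led by GPAT7, an acyltransferase gene (1.55 ± 0.21). Cuticular wax genes were mostly not called, 2 up and 2 down of 14, with a median of 0.15, and CER1, of alkane synthesis, rose by 1.23. Of the Casparian strip genes only MYB36 was tested, and it was not called (-0.30 ± 0.12, or 0.13 under the E1A scaling).

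Root hair genes rose in 8 and fell in 0 of 18, with a median of 1.14, but with slide as a block only 2 were called. RHS2 had 0.740, 1.04 and 1.05 at 150 mM, against 0.109, 0.102 and 0.137 at 0 mM, a change of 3.02 ± 0.24. PRP1, a proline-rich wall protein gene, had 0.228, 0.301 and 0.299 at 150 mM, against 0.0411, 0.0168 and 0.0720 at 0 mM, where the 0 mM arrays spread more widely than the 150 mM arrays. RHS19 changed by 1.84 ± 0.62, with an adjusted p of 0.058 when slide was a block, and PRP3 was not called (adjusted p = 0.053).

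Of the 29 cell cycle and DNA replication genes listed, 13 had no probe listed and 16 were tested. Those tested stayed near the median of all genes, with 1 rise and 3 falls and a median of -0.018, or 0.41 under the E1A scaling. The rise was that of SMR5 (AT1G07500), an inhibitor of cyclin-dependent kinases, with 0.727, 1.17 and 0.790 at 150 mM, against 0.115, 0.104 and 0.122 at 0 mM and a change of 2.95 ± 0.19. Autophagy genes fell in 11 and rose in 0 of 17, with a median of -0.32 that turned to 0.11 under the E1A scaling. Circadian clock genes fell in 8 and rose in 2 of 14, with a median of -0.26 that turned to 0.17 under that scaling, and PRR7 had 1.09, 1.16 and 1.09 at 150 mM, against 2.46, 2.61 and 2.6 at 0 mM. ADH1 (AT1G77120), alcohol dehydrogenase, known from hypoxia and salt, had 4.06, 3.38 and 2.98 at 150 mM, against 0.655, 0.521 and 0.613 at 0 mM, a change of 2.54 ± 0.47.

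Marker genes of organs and cell types were read against the shares over all genes, 33.1% higher and 30.2% lower. Of 10 shoot and leaf markers, 6 fell and 1 rose, with a median of -0.49, and their summed relative signal was 10.2 to 11.99 at 150 mM and 14.4 on each array at 0 mM. Of 8 guard cell markers, 6 fell and 1 rose, with a median of -0.47 and a sum of 41.7 to 44.3 at 150 mM and 54.2 to 59.2 at 0 mM. Both falls depended on the scaling. Under the E1A scaling the shoot and leaf median was -0.064, with 4 called lower and 3 higher. The guard cell median was then -0.042, with 2 called lower and 1 higher. Root markers rose in 4 of 11, near the share over all genes, and fell in 1, below that share. Their median was 0.51, or 0.93 under the E1A scaling and 0.16 with slide as a block. Their sums overlapped, at 2.72 to 3.1 at 150 mM and 2.79 to 3.28 at 0 mM. Vascular markers held 3 rises and 3 falls among 11, with sums of 17.39 to 19.1 at 150 mM and 19.8 to 19.97 at 0 mM, and seed markers 2 rises and 0 falls among 4, with sums of 0.0563 to 0.0769 at 150 mM and 0.0217 to 0.0377 at 0 mM. KAT1, a potassium channel of guard cells, fell by 1.63, and OLEO1, an oil body protein of seeds, rose at least 3.52-fold. All 5 marker lists were above the 20th percentile at 0 mM in at least part of their genes, and the part that organ or cell proportions had in the gene groups above was not tested. Of 10 reference genes used for quantitative PCR, 6 fell and 1 rose, with a median of -0.21 that turned to 0.21 under the E1A scaling.

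**Figure D5:**
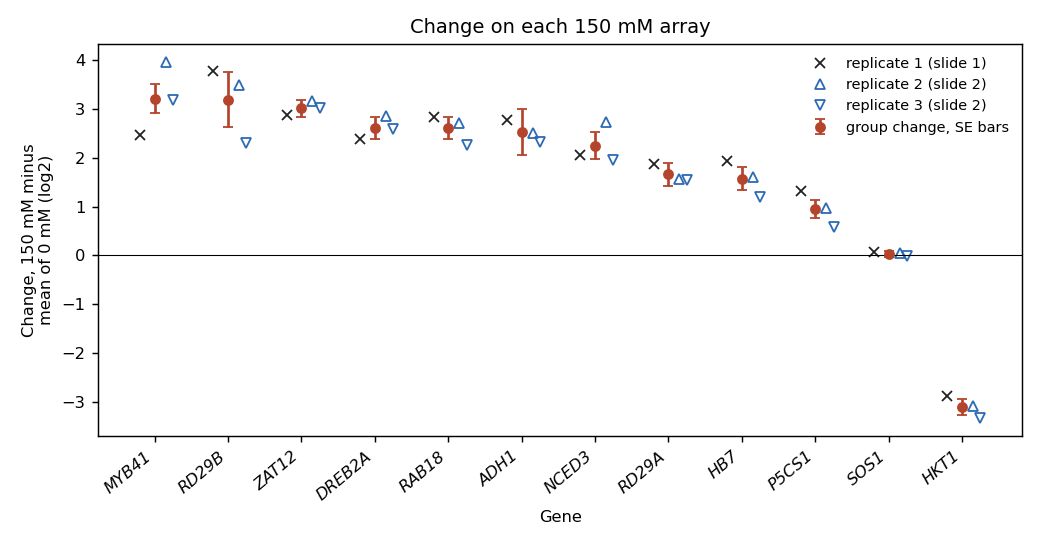
Change of the 12 genes named in every comparison (log2, vertical axis) on each 150 mM array against the mean of the 3 arrays at 0 mM, for replicate 1 (slide 1, crosses) and replicates 2 and 3 (slide 2, open triangles), with the group change and its SE as filled circles with bars. The 10 called rises lie above 0 and HKT1 below 0 on all 3 arrays.

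The response of these genes in SvGRP was set against that of the wild type through the interaction of genotype and salt, for which 2402 of all genes tested were called (8.96%), or 138 with slide as a block. Of the 12 genes named throughout, 2 were called. RD29A rose 1.22 further in SvGRP than in the wild type (log2, adjusted p = 0.049), and DREB2A rose 1.2 further (adjusted p = 0.048). With slide as a block, the differences were 1.31 (adjusted p = 0.29) and 1.60 (adjusted p = 0.21). For HKT1 the difference was -0.067 with an adjusted p of 0.88, and for NCED3 it was 0.63 with an adjusted p of 0.32. Slides and groups are not balanced in this contrast.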

How the data were processed

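RNA of whole seedlings was labelled with Cy3 by linear amplification and hybridised to one-colour arrays, per the labels' protocols. The deposited array files give an intensity per probe, the processed signal of Agilent Feature Extraction (per the submitters' processing notes, without a version), on a linear scale, unscaled between arrays and without flags or background columns. The authors' deposited series table of log2 values matched the log2 intensities scaled as here and centred per probe, within 0.000389, and served as an alternative. No intensity floor was set by the authors as far as the file headers say.

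Of 43603 probes other than the 60 controls, 34344 are paired with a gene in the probe table used, and names were updated through a RefSeq table (assembly TAIR10.1), giving 24678 genes, 7310 with several probes. Log2 intensities were scaled by subtracting the 75th percentile of the array. Probes had to exceed the array's 20th percentile in every array of some group, the brightest probe on average represented a gene, and 26794 genes or unnamed probes were tested. A gene that no array of a group showed above that percentile has only a bound there, given as "at least N-fold" against the higher of its own signal and that percentile. Among called genes with several probes, 361 of 4375 had probes of opposite sign. limma 3.58.1 (R 4.3.3) fitted 4 group means over the 12 arrays, with 8 residual and 1.74 prior degrees of freedom, and "adjusted p" means its Benjamini-Hochberg value over all genes tested. The fit was also run on simulated data for this comparison, with 100 changed genes among 26794. It recovered 84% of 2-fold and 90% of 4-fold changes and called 11 unchanged genes beside them. In the data 63.2% of genes were called, so the simulation does not show how calls behave when so many genes change.

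The 55 functional and 5 marker lists hold 1000 entries, of which 865 were tested. Of the rest, 23 had no locus in the RefSeq table, and the others had no probe listed for 1 gene or were too dim. The comparison and the lists were chosen with earlier results of these data known. Genes given with array values are the 4 called members with the largest change in a list at most, 12 genes named throughout (RD29A, RD29B, RAB18, NCED3, P5CS1, HKT1, SOS1, DREB2A, ZAT12, HB7, MYB41 and ADH1), and, outside lists, those among the 12 largest rises and falls in called genes that carry a symbol and have no overlap between groups, over all genes and over genes with a mean above the 75th percentile. Slide numbers come from the arrays' own barcodes in the file headers. Alternatives were quantile, median and E1A scaling (8 control probes), other filters and probe rules, slide or replicate number as a block, each wild-type array left out, a trended robust variance, a 2-fold threshold and a fit of the 6 wild-type arrays.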

Additional observations from a re-analysis of the deposited data

Results flagged for a closer look

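Among the 12 genes named throughout, 2 had a salt response that differed between the genotypes by the interaction test of limma. RD29A rose 1.22 ± 0.33 (log2, SE) further in SvGRP than in wild type (adjusted p = 0.049). DREB2A rose 1.2 ± 0.32 further in SvGRP than in wild type (adjusted p = 0.048). With slide as a block the differences were 1.31 and 1.60, with adjusted p of 0.29 and 0.21. Groups of 3 arrays are too small for a test of single outlying arrays.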

How the results depend on the processing

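Over the wild-type response, the count of genes called stayed between 12257 (slide as a block) and 19394 (no filter on dim probes) under the other alternatives. Leaving out each wild-type array gave 15469 to 16432. With each probe tested on its own, 22120 probes were called, which is not a count of genes. Under the E1A scaling 16287 genes were higher and 2654 lower, with 4896 and 789 at least 2-fold higher and lower. Without a filter on dim probes 6603 genes changed at least 2-fold, 4122 of them lower, and with the filter at the 40th percentile the counts were 2478 at least 2-fold and 1253 at least 2-fold higher. Adding a change of at least 2-fold to the adjusted p left 3985 genes, and 880 for the difference between genotypes. That difference was called for 138 genes with slide as a block and for 987 to 2959 when a wild-type array was left out (987 without 150 mM replicate 2, 1376 without 0 mM replicate 2 and 1422 without 0 mM replicate 3).

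Same-numbered arrays at 150 and 0 mM had r of deviations from -0.070 to -0.055 across genes, and other pairs from 0.012 to 0.059. Deviations of the arrays within a group are tied to each other. Replicates 2 and 3 at 150 mM also lay on another slide than the 0 mM arrays. These values therefore cannot decide whether the numbers pair arrays. With replicate number as a block, 16102 genes were called for salt and 1215 for the difference between genotypes.

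Of the 183 called genes given with values, none had its direction reversed in an alternative run that tested it. The stricter filters compared fewer of them. These were 155 with probes above the 20th percentile on all 12 arrays, and 170 with the filter at the 40th percentile. With slide as a block 5 were not called (BIP3, GOLS3, NDB4, PDF1.2 and RHS19), under the E1A scaling 4 (GOLS3, MRO, NAC083 and TTG1), and 180 kept their call without any 1 wild-type array, the others being BIP3, MRO and RHS19. CYP94C1 was not called in the fit of the 6 wild-type arrays and BIP3 not under quantile normalization. The median of 11 lists had the other sign under the E1A scaling, of 3 under quantile normalization and of 2 under median scaling. Lists with a median near 0, such as galactinol synthesis and the cell cycle, also turned sign when some arrays were left out, and the xyloglucan list did so without 150 mM replicate 1. The cause of these differences was not tested. Dim probes limit the depth: 407 of the 3985 genes had only a bound at 0 mM and 124 only a bound at 150 mM.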

Other observations

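Neighbouring genes were compared where both belong to a list or to the largest changes and no protein-coding gene lies between them in the RefSeq gene table. Of 60 such pairs, both genes were called in 40, in the same direction in 30 and in opposite directions in 10. Over all genes tested 63.2% were called, and some pairs are related genes of the same list. The share among other neighbouring genes was not computed, so these counts are not read as a trait of neighbours. Pairs that rose together included AOX1A and AOX1B, VSP1 and VSP2, HSP17.6 and HSP17.6II (4.85 ± 0.30), and the adjacent allene oxide cyclase genes AOC1, AOC2 and AOC3 of jasmonate synthesis (1.3 ± 0.24, 1.11 ± 0.21 and 1.54 ± 0.25). Pairs that fell together included the auxin genes IAA2 and IAA7 (-1.12 ± 0.064 and -1.15 ± 0.10) and IAA14 and IAA1 (-1.12 ± 0.14 and -1.33 ± 0.16). In other pairs the neighbours parted. The ABA receptor gene PYL6 fell beside DREB2C, which changed by 2.31 ± 0.26. ATG8A, an autophagy gene, fell by 0.81 beside APR3, and SAG29 rose beside NAC083, which fell by 0.62. IRT2, next to IRT1, had a change of 0.58 ± 0.89 with an adjusted p of 0.59 and was not called. These pairs were picked after their values were seen, and probes of near-identical neighbours may share signal.

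The cold-type CBF genes are neighbours as well: CBF1, CBF3 and CBF2 stand in a row, and their changes were 2.5 ± 0.26, 1.34 ± 0.21 and 0.87 ± 0.13.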
